A study of Homo sapiens with 32 samples.

Results

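Replication-dependent histone genes encode the bulk of the histones that package newly made DNA. They were taken here as the protein-coding genes on chromosomes 1 and 6 whose RefSeq symbols start with H1-, H2AC, H2BC, H3C or H4C, and there were 68 of them among 20056 protein-coding genes. The set held 6 H1, 17 H2A, 18 H2B, 13 H3 and 14 H4 genes, of which 55 lay in the cluster on chromosome 6 between 25.7 and 27.9 Mb, 11 near 149.8 Mb on chromosome 1 and 2 near 228.5 Mb on chromosome 1. A gene was called in a library when a peak of that library overlapped its annotated body by at least 1 bp.

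The peaks came from MeRIP-seq, in which RNA fragments carrying N6-methyladenosine (m6A) are pulled down with an antibody and sequenced beside an Input sample. The 2 cell lines were 786-O, a clear cell renal cell carcinoma line, and RPTEC, renal proximal tubule epithelial cells immortalized with hTERT. Each was grown as 4 lines: the parental line (WT), SETD2KO-1 and SETD2KO-2, which are CRISPR knockout clones of the histone H3 lysine 36 methyltransferase SETD2, and SETD2KO-1R, a clonal line in which full-length FLAG-tagged SETD2 was put back into clone 1. Each line gave 2 IP libraries, so there were 16 peak lists, 8 per cell line, and WT with SETD2KO-1R formed the SETD2-expressing group of 4 libraries per cell line. All lines of a cell line shared their medium, each knockout line was 1 clone, and the replicates are not said to be separate cultures, so p-values measure the spread between libraries, which may be technical.

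As background, genes of this class are typically short, lack introns and end in a stem-loop in place of a poly(A) tail. The stem-loop binding protein SLBP and the U7 snRNP complete that 3′ end, and NPAT drives transcription of the clusters in S phase. In the set used here, 8 genes had annotated bodies over 1000 bp, the longest of 29682 bp. Many H2A and H2B genes stand head to head and share a promoter. The libraries were made from total RNA, so transcripts without a poly(A) tail were within reach of the assay.

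The promoters of members on which the results below turn are shown next, because most summits fell at or before the annotated start. Each line is the 120 bases before the start, 5′ to 3′ on the strand of the gene, from RefSeq (GRCh38.p14). Capitals mark an octamer, a CCAAT box, a TATA box or an AC box on either strand, with the letters of each given after the sequences. H2BC9 was called in 786-O alone, H1-1 in RPTEC alone and H4C2 in 786-O alone. H2BC15, H2AC20 and H3C15 were called in all 16 libraries, H4C14 in 15, H1-4 in 13 and H2BC3 in none.
H2BC9, chr6:26251494-26251613, plus strand: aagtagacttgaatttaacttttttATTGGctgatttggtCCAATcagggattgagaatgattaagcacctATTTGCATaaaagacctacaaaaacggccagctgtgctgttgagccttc
H2BC15, chr6:27838449-27838568, plus strand: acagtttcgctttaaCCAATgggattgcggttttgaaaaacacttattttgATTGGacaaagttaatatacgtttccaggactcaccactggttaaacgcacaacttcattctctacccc
H2AC20, chr1:149886798-149886917, plus strand: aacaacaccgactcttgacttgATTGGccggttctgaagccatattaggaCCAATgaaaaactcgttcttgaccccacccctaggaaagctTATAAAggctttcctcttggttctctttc
H3C15, chr1:149852488-149852607, plus strand: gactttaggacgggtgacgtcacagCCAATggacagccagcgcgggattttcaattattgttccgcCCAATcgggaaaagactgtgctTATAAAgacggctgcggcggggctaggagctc
H4C14, chr1:149832537-149832656, plus strand: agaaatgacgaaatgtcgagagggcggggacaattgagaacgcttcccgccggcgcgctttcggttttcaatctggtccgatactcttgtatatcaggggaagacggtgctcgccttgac
H1-4, chr6:26156209-26156328, plus strand: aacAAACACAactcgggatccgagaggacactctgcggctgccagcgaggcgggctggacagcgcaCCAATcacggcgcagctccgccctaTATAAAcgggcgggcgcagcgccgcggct
H1-1, chr6:26017788-26017907, minus strand: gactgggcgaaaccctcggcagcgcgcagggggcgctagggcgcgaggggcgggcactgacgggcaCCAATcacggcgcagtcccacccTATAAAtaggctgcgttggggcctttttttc
H4C2, chr6:26027284-26027403, minus strand: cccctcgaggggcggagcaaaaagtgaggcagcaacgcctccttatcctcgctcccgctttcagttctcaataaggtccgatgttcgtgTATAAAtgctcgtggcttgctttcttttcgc
H2BC3, chr6:26043714-26043833, minus strand: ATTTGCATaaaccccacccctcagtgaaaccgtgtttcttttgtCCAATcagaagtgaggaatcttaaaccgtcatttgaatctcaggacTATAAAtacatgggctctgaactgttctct

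Of the 68 genes, 63 had a promoter of 300 bases (250 before the start and 50 after it) in the RefSeq table. The octamer ATGCAAAT, bound by the POU factor OCT1 that is encoded by POU2F1, stood in 26 of these 63 windows (41.3%) against 1.70% of the 15842 windows of all protein-coding genes. It was held by 14 of 18 H2B and 11 of 16 H2A windows, by 1 of 11 H3 windows and by no H1 or H4 window, and a head-to-head pair can count the same octamer in both windows. The H3 window is that of H3C4, which has the start of H2AC7 and so counts its octamer again. The AC box, searched as AAACACA, was in all 6 H1 windows and in 4.24% of all windows. The letters CCAAT were in 85.7% of histone windows against 36.4% of all. The TATA box, searched as TATAAA, was in 65.1% against 9.63%. No motif was part of another, and each was searched on both strands. GGACT, a frequent form of the m6A consensus, was in 44.4% of histone windows and 45.8% of all. Octamers were found at 22 of 48 called and 4 of 15 never-called genes. These matches describe letters in a window and no binding was measured.

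Peaks at histone genes were found in every library. Between 21 and 43 of the 68 genes were called per library (median 33), which is 30.9% to 63.2%, while 38.6% to 51.2% of all protein-coding genes were called. Gene length sets how easily a body meets a peak, and 60 of the 68 bodies were 386 to 1000 bp long. Of those 60, 26.7% to 60% were called per library, against 1.20% to 6.24% of the 417 other protein-coding genes of that length. The share of short histone genes was the higher in 16 of 16 libraries, by 8.11 to 32.0 times. The groups were matched on length alone and not on expression, and a peak over several histone genes counts for each. Of the 417 other genes, 90.6% were called in no library, against 25% of the 60 histone genes. The depth of each library is unknown, since the lists hold peaks and no reads and the study's methods state only a minimum per sample. A gene without a peak is thus one at which none was detected.

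**Figure D1:**
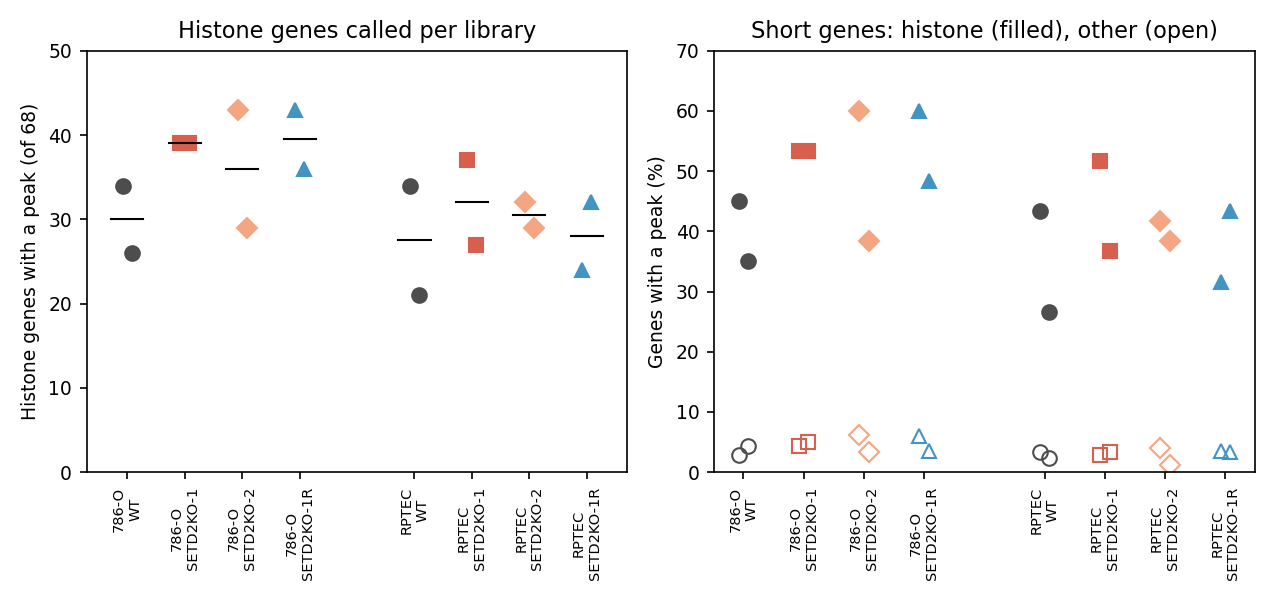
Left, number of the 68 histone genes with a peak in each IP library by cell line and line, with the bar at the mean of the 2 replicates. Right, percent of the 60 histone genes of at most 1000 bp (filled) and of the 417 other genes of that length (open) with a peak. The filled symbols lie between 26.7% and 60% and the open ones between 1.20% and 6.24%.

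The 68 genes spanned the whole range of recurrence. Of these, 6 were called in all 16 libraries, 47 in some and 15 in none, and 42 were called in both cell lines, 8 in 786-O alone and 3 in RPTEC alone. As shares, 8.82% of histone genes were called in all 16 libraries and 22.1% in none, where 23.1% and 33.1% of the 20056 protein-coding genes were. Calls in 786-O alone made up 11.8% of histone genes and 6.16% of all genes, and calls in RPTEC alone 4.41% and 4.94%. The smaller chromosome 1 cluster near 149.8 Mb was the most recurrent: its 11 genes were called in a mean of 89.8% of libraries, against 41.7% for the 55 genes on chromosome 6. H2AC25 and H2BC26, the pair near 228.5 Mb, were never called. Many histone genes have near-identical copies (H3C14 and H3C15, H2AC18 and H2AC19, H4C14 and H4C15), and how reads that match several copies were handled is not given in the sources used here, so a peak at such a gene may hold reads of its copy.

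Among the linker histones, H1-4 was called in 7 of 8 786-O and 6 of 8 RPTEC libraries, H1-5 in 7 and 5, and H1-2 in 6 and 6. H1-3 was called in 1 786-O library. H1-6, the testis-specific H1, was called in none. H1-1 is described below.

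Of the H2A genes, H2AC20 and H2AC15 were called in all 16 libraries and H2AC19 in 8 of 8 786-O and 7 of 8 RPTEC libraries. The testis gene H2AC1 was called in none, as were H2AC14 and H2AC25. Peaks covered 52.8% to 56.3% of the body of H2AC20 in 786-O and 49.6% to 61.9% in RPTEC, so the cell lines overlapped.

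Of the H2B genes, H2BC21 and H2BC15 were called in all 16 libraries and H2BC17 in 8 of 8 786-O and 7 of 8 RPTEC libraries. H2BC1, the testis partner of H2AC1, was called in none, as were H2BC3 and H2BC26. H2BC21 and H2AC20 stand head to head, as do H2BC15 and H2AC15, so the 4 most recurrent core genes of these families are 2 pairs.

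Of the H3 genes, H3C15 was called in all 16 libraries, H3C14 in 8 of 8 786-O and 6 of 8 RPTEC libraries, and H3C4 in 8 and 5. H3C1, H3C3 and H3C7 were called in none. Of the H4 genes, H4C15 was called in all 16 libraries, H4C14 in 8 and 7, and H4C5 in 6 and 5. H4C6, H4C7, H4C9, H4C11 and H4C13 were called in none. The annotated body of H4C15 is 16753 bp long and holds H2AC19 and H3C15, so a peak at those genes also counts for H4C15. The body of H3C4, 2510 bp long, likewise holds H2AC7, with the same start. In 7 of the 8 786-O and all 5 RPTEC libraries that called H3C4, a peak covered that start and the start of H2BC7, so most calls of H3C4 count a peak shared with both genes.

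**Figure D2:**
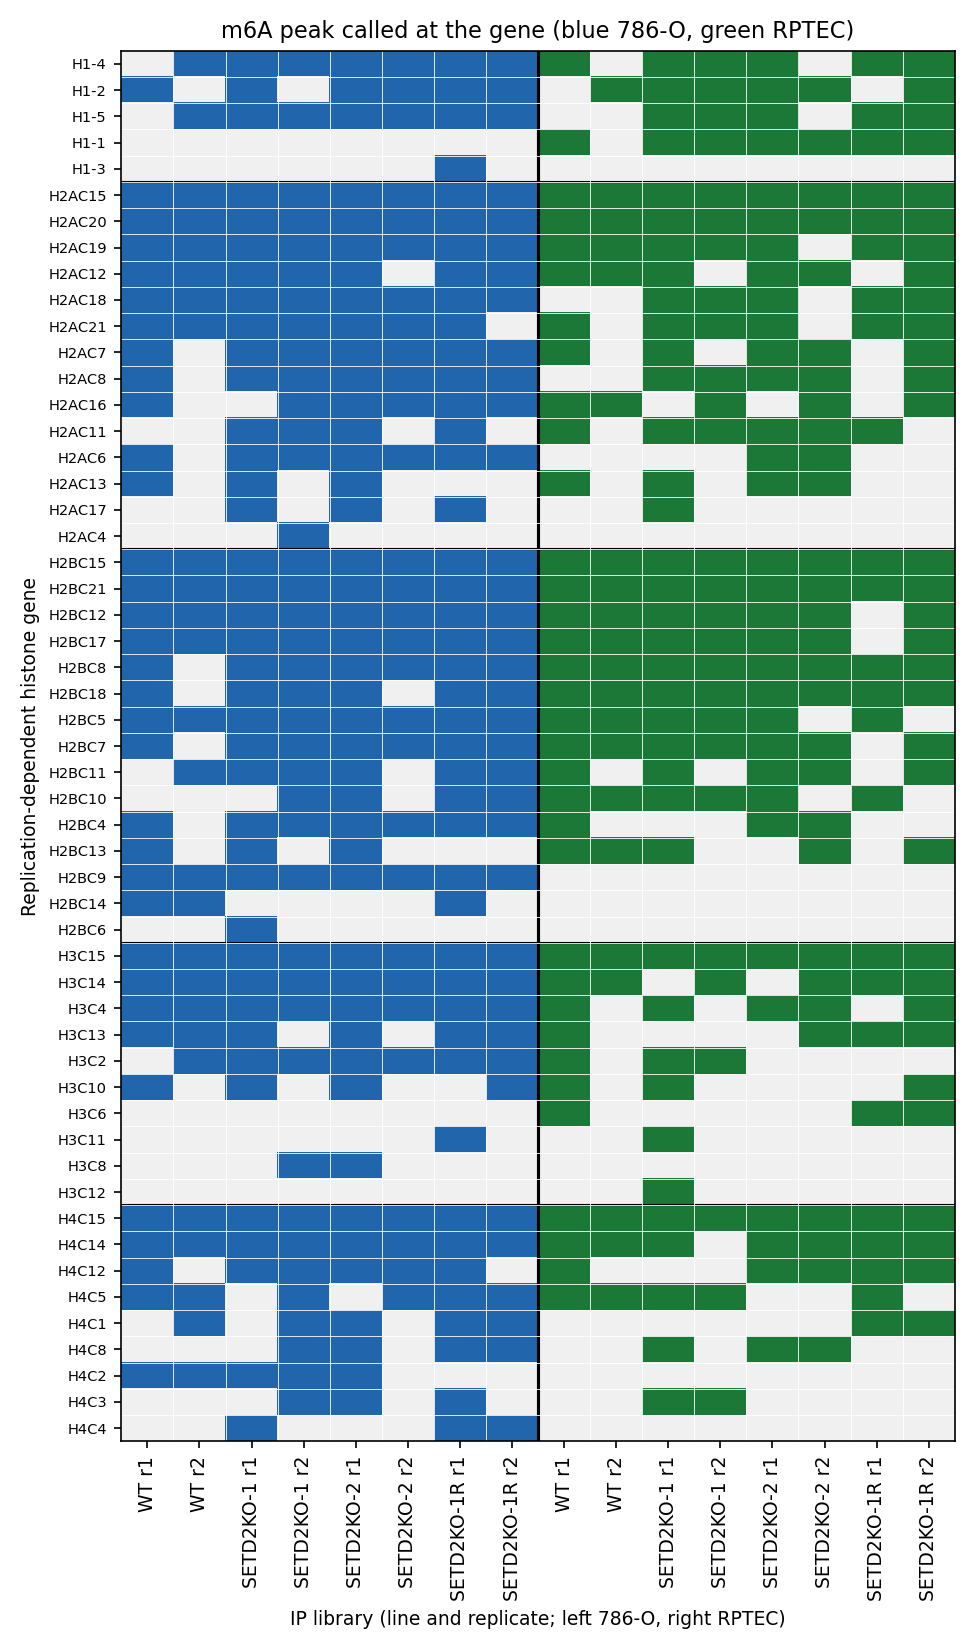
Each row is 1 of the 53 histone genes called in at least 1 library, grouped by family and ordered by the number of calling libraries, and each column is an IP library. Coloured cells are calls. H2BC9 is filled in all 8 786-O columns and no RPTEC column, and H1-1 in 7 RPTEC columns and no 786-O column.

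Agreement between replicates is given as a description. Of the gene and line combinations with a call, 64.1% were called in both replicates at histone genes and 77.6% over all protein-coding genes.

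The peaks sat at the 5′ end of the genes. Of peaks at the 63 genes with an annotated start, 81.8% to 96.4% per library had a summit (the highest point of the peak) within 500 bp of a start, against 5.71% to 12.8% for other protein-coding genes and 64.3% to 100% for other genes of at most 1000 bp, where length alone keeps summits close. The side on which the summit fell was compared among the same gene groups. Of start-near summits, 79.8% ± 10.5 (SD, n = 16 libraries) lay upstream of the start at histone genes, 36.1% ± 5.15 at other protein-coding genes and 32.5% ± 13.9 at other genes of at most 1000 bp. The share was the highest at histone genes in 16 of 16 libraries in both contrasts. By SETD2 status it averaged 76.8% ± 12.4 (SD, n = 8) with SETD2 knocked out and 82.7% ± 7.79 (SD, n = 8) with SETD2 expressed, and the ranges of 52% to 92.6% and 69.6% to 94.7% overlapped.

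At the 40 short histone genes with a start and a peak, 308 of 396 gene and peak pairs had the summit upstream, and, with the body cut into 3 equal parts, 83 in the 5′ part, 5 in the middle and 0 in the 3′ part. The median summit lay 50 bp upstream of the start, and peaks ran from a median of 206 bp upstream to 194 bp downstream of it. None of the 396 peaks reached the annotated gene end, where the stem-loop lies. By family the upstream share was 95.6% for H1, 92.1% for H2B, 84.6% for H4, 76.3% for H3 and 59.7% for H2A. H1 peaks reached furthest into the body, with a median downstream edge at 438 bp. Pairs of 1 gene share a position across libraries and pairs of head-to-head genes share a peak, so they are not independent. The lists carry no strand, so transcripts of the gene and those running the other way from its promoter cannot be told apart.

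**Figure D3:**
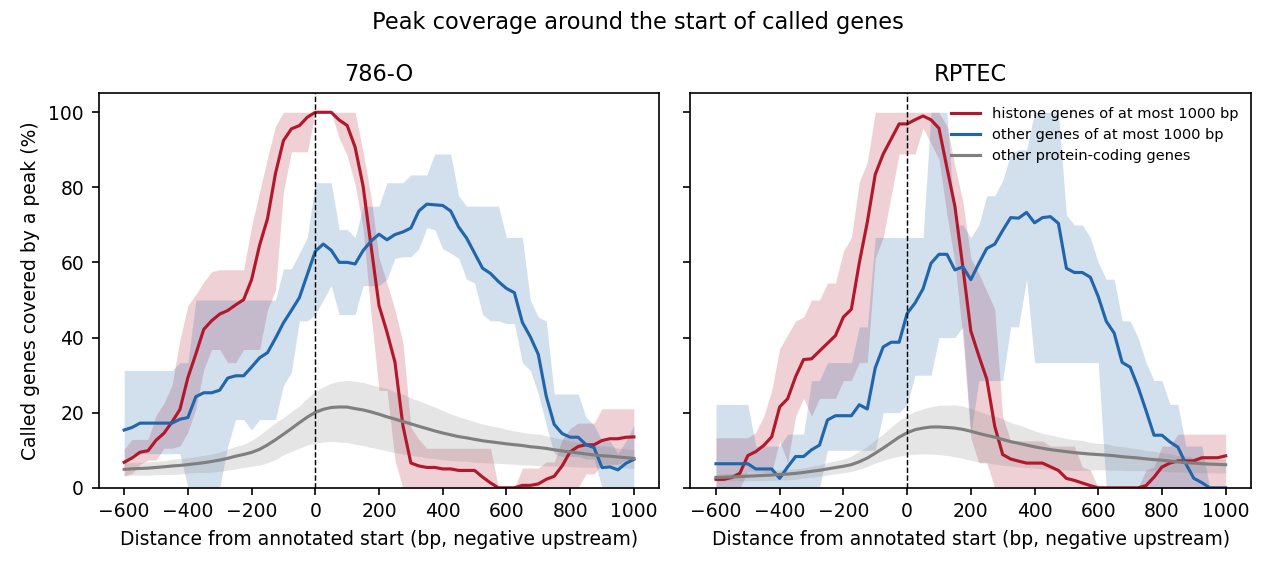
Percent of called genes covered by a peak at each distance from the annotated start (negative is upstream), as the mean over the 8 libraries of a cell line with the lowest and highest library shaded. Coverage of histone genes of at most 1000 bp is 100% from 0 to 50 bp past the start in 786-O and highest, at 99.0%, 50 bp past it in RPTEC. For other genes of at most 1000 bp it is highest 350 bp past the start in 786-O (75.5%) and 375 bp past it in RPTEC (73.3%).

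Head-to-head pairs were spanned by a shared peak. There were 12 such pairs of 23 genes (H2BC7 pairs with both H2AC7 and H3C4) with starts 194 to 248 bp apart, giving 192 pair and library combinations, of which 95 had both genes called, 31 had 1 gene called and 66 neither. In 94 of the 95, a peak covered both starts. The H2BC21 and H2AC20 pair was spanned in 8 of 8 786-O and 7 of 8 RPTEC libraries, and the H2AC15 and H2BC15 pair in 8 and 8. Where both genes of a pair were called, the calls mostly count the same peak.

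The comparison of 786-O with RPTEC asked which histone genes carried peaks in the carcinoma line or in tubule cells. The number of histone genes called per library ran from 26 through a median of 37.5 to 43 in 786-O and from 21 through 30.5 to 37 in RPTEC, so the cell lines overlap. Of the 53 genes called at all, 35 had more calling libraries in 786-O, 9 more in RPTEC and 9 as many, against 38.9%, 19.6% and 41.5% of the 13420 protein-coding genes tested. The 786-O lists also held more peaks (25710 to 39670, against 19249 to 31207), and of 22 genes of S phase and the cell cycle 13 to 20 were called per 786-O library and 9 to 15 per RPTEC library, which overlap (mean 71.6% and 54.5%, where 48.5% and 44.9% of all genes were called). The part of either in the difference was not tested. The 2 cell lines carry different name prefixes for their runs, and cell line and run cannot be told apart.

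H2BC9 was the only histone gene past an adjusted p of 0.05 in Fisher's exact test over all genes, with 8 of 8 786-O and 0 of 8 RPTEC libraries (adjusted p = 0.0139). Over all 13420 genes, 0.425% passed in that direction and 0.693% in the other. H2BC9 encodes an H2B protein and spans chr6:26251614-26252075 on the plus strand. Its peaks in 786-O lay within chr6:26251470-26251813, were 298 to 334 bp long, and had summits 67 to 16 bp upstream of the start, on both sides of the octamer printed above. They covered 33.3% to 43.3% of the body (median of the 8 libraries 39.4%), and the list rank of the peak ran from the 4.49th to the 93.7th percentile by score, lowest in SETD2KO-2 replicate 2. By the same exact test, the call was lost when lists were limited to their upper 50% by score (7 against 0, adjusted p = 0.0833), to the same number of peaks (7 against 0, adjusted p = 0.0726), to summits within the body or to summits within 250 bp of a start (8 against 0, adjusted p = 0.0795), and with the line as unit (4 against 0, adjusted p = 1). With 4 units a side the smallest possible unadjusted p by that test is 0.0286, so the last setting could hardly have kept the call.

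H1-1 ran the other way. Its linker histone gene at chr6:26017032-26017787 was called in 0 of 8 786-O libraries and in 7 of 8 RPTEC libraries, with RPTEC WT replicate 2 the exception, at an unadjusted p of 0.0014 by Fisher's exact test that did not pass adjustment (adjusted p = 0.0632). It was the 1 histone gene at an unadjusted p under 0.05 in this direction, where 3.11% of all genes were, and there were 3 in the other direction (H2BC9, H2AC6 and H4C2), where 4.34% were. The covered share of the body, a measure from the same peaks, was 0 in every 786-O library and ran from 0 through a median of 58.5% to 73.4% in RPTEC. Its summits lay 83 to 35 bp upstream of the start.

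In the covered share, tested by exact permutation over libraries with adjustment over all genes, 4 histone genes were higher in 786-O and 1 in RPTEC, where 8.72% and 2.65% of all genes passed. They were H2BC9, H4C15, H2BC5 and H2AC6 in the first direction and H1-1 in the second. No summit in the body of H4C15 lay closer than 2715 bp to its start, and its RPTEC peaks all lay within chr1:149850804-149852887, at and upstream of the starts of H2AC19 and H3C15, so this value does not describe peaks at the start of H4C15. The median summit of H2BC5 was at 1283 bp from its start in 786-O and at -23 bp in RPTEC. In 786-O its value also counts a peak near the gene end, described below, that the 4 SETD2KO libraries alone had. It is thus not the value of the start peak alone. The mean share of H2AC6 was 45.2% ± 19.5 (SD, n = 8) in 786-O and 9.71% ± 19.1 (SD, n = 8) in RPTEC (adjusted p = 0.0439, exact permutation), with WT replicate 2 at 0 in 786-O and only the 2 SETD2KO-2 libraries above 0 in RPTEC. H4C2 was called in 5 of 8 786-O libraries and 0 of 8 RPTEC libraries, which did not pass. For 786-O, 4 of 53 genes is near the background of 8.72%. Each of the 5 calls ended under at least 1 other setting. With the summit inside the body H4C15 and H2BC5 passed, in the upper 50% by score H2BC9 alone, and with the same number of peaks H4C15 and H2BC9. H2AC6 passed in 3 of the 16 fits that each left out 1 library, and the other genes in all 16.

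**Figure D4:**
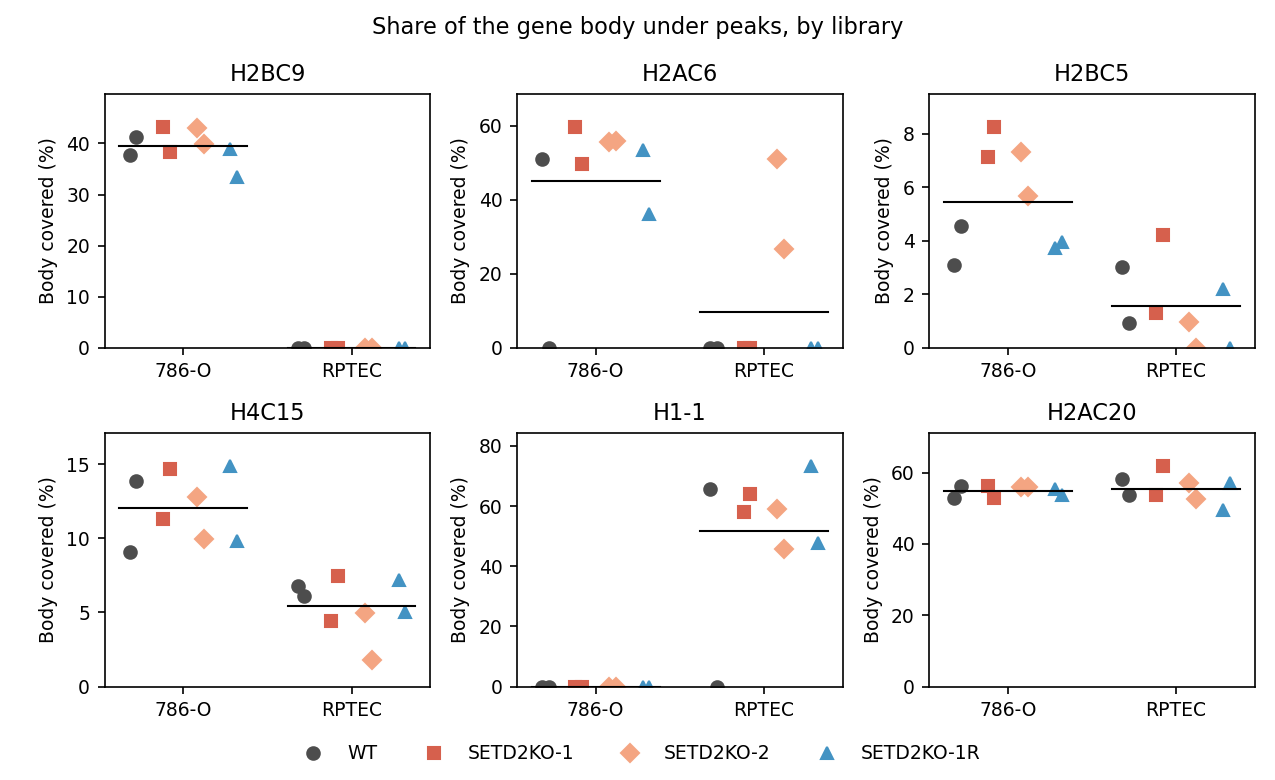
Percent of the annotated body under peaks in each IP library for 6 histone genes, by cell line, with symbols for the line and the bar at the mean of 8 libraries. H2BC9 is at 0 in all RPTEC libraries, H1-1 at 0 in all 786-O libraries, and H2AC20 overlaps between the cell lines.

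By the presence of a peak, no histone gene separated the SETD2KO libraries from the SETD2-expressing ones. In 786-O, the knockout libraries called 39, 39, 43 and 29 histone genes and the SETD2-expressing ones 34, 26, 43 and 36. In RPTEC it was 37, 27, 32 and 29 against 34, 21, 24 and 32. The ranges overlap in both cell lines. The mean was 37.5 ± 5.97 (SD, n = 4) against 34.8 ± 6.99 in 786-O, and 31.3 ± 4.35 against 27.8 ± 6.24 in RPTEC. Of all protein-coding genes, a mean of 48.7% against 48.2% was called in 786-O and 44.0% against 45.8% in RPTEC. In 786-O, 20 histone genes had more calling libraries with SETD2 knocked out and 8 fewer (40% and 16% of 50, against 20.5% and 19.1% of all genes). In RPTEC it was 21 and 11 (46.7% and 24.4% of 45, against 18.4% and 27.0%). No gene, histone or other, passed adjustment by Fisher's exact test with 4 libraries a side, where the smallest possible unadjusted p is 0.0286. At an unadjusted p under 0.05 by this test there were 0 histone genes in either cell line, and of all genes 0.426% were called in all SETD2KO and no SETD2-expressing 786-O library and 0.282% the reverse, with 0.517% and 0.394% in RPTEC.

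The covered share of the body gave 3 histone genes at an unadjusted p under 0.05 in 786-O, H2BC5, H2AC7 and H2AC15, all higher with SETD2 knocked out. For H2AC15 the share was 41.3%, 40.7%, 47.2% and 42.3% in the SETD2KO libraries and 39.7%, 35.9%, 39.9% and 37.1% in the SETD2-expressing ones, so the groups do not overlap. For H2AC7 it was 36.9%, 48.6%, 47.5% and 46.1% against 27.5%, 0, 33.9% and 34.5%, and for H2BC5, which has a long body, 5.68% to 8.27% against 3.09% to 4.55%. Each had the smallest p that 4 against 4 libraries allow (0.0286, exact permutation) and none passed adjustment (adjusted p = 0.547). The 3 of 50 genes stand beside 3.28% of all genes in that direction. No histone gene did so in the other direction in 786-O, or in RPTEC in either, where 1.94%, 1.72% and 2.95% of genes did. The median difference in covered share was 3.77 points at histone genes and 0.0664 over all genes in 786-O, and 0.551 and -0.169 in RPTEC.

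By family, the SETD2KO and SETD2-expressing ranges overlapped for all 5 families in both cell lines. In RPTEC the means were 9.75 against 7.25 for H2A, 10.25 against 9.25 for H2B, 3.5 against 2.5 for H1, 4 against 4 for H4 and 3.75 against 4.75 for H3, where all genes had 44.0% against 45.8%. In 786-O they were 11.5 against 9.5, 11.75 against 11.25, 2.75 against 2.5, 6 against 6 and 5.5 against 5.5 in that order, where all genes had 48.7% against 48.2%. H2A genes were called in 9 to 13 of 17 in SETD2KO and 6 to 12 in SETD2-expressing 786-O libraries, and in 8 to 11 against 5 to 9 in RPTEC. H2B genes were called in 9 to 13 of 18 against 8 to 13 in 786-O and in 9 to 11 against 6 to 12 in RPTEC. H3 genes ran from 4 to 7 of 13 against 5 to 6 in 786-O, and from 2 to 6 against 2 to 7 in RPTEC. H4 genes ranged from 4 to 8 of 14 and 5 to 8 in 786-O, and from 3 to 5 in both RPTEC groups. H1 genes ranged from 2 to 3 of 6 against 1 to 4 in 786-O and from 2 to 4 against 1 to 4 in RPTEC. S phase and cell cycle genes were called in 13 to 17 of 22 and 14 to 20 in 786-O, and in 9 to 13 and 12 to 15 in RPTEC.

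By SETD2 status, 4 genes differed by at least 3 libraries. In 786-O, 1 histone gene of 50 was called in at least 3 fewer SETD2KO libraries and 0 in at least 3 more, where 1.35% and 2.01% of all genes were. In RPTEC it was 1 fewer and 2 more of 45, where 2.08% and 1.82% of all genes were. H2BC14 was called in 0 of 4 SETD2KO 786-O libraries, in both WT libraries and in 1 SETD2KO-1R library, and its peaks covered 49.4%, 53.6% and 61.3% of the body. In RPTEC, H2AC8 was called in 4 of 4 SETD2KO libraries, in neither WT library and in 1 SETD2KO-1R library, and H4C8 was called in 3 of 4 SETD2KO and 0 of 4 SETD2-expressing RPTEC libraries. The peaks of H2AC8 covered 43.3% to 59.96% of its body in the SETD2KO libraries and 54.5% in SETD2KO-1R replicate 2, and those of H4C8 covered 36.4%, 30.3% and 19.6%. H3C6 was called in 0 of 4 SETD2KO and 3 of 4 SETD2-expressing RPTEC libraries. It has 2 annotated starts, and the summits lay between them, 607, 785 and 658 bp past the first and -350 to -172 bp from the other. In the other cell line H2AC8 was called in 4 of 4 SETD2KO and 3 of 4 SETD2-expressing libraries, H4C8 in 2 and 2, and H2BC14 and H3C6 in none.

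Against WT alone, the histone genes called in all 4 SETD2KO and neither WT library, or the reverse, were H2AC8 in RPTEC (1 gene, where 1.45% of 11799 genes were) and H2BC14 in 786-O (1 gene, where 1.29% of 12110 genes were). No histone gene was gained in all 4 SETD2KO 786-O libraries, where 1.25% of genes were, or lost in all 4 in RPTEC, where 1.2% were. The first of these rests on single WT libraries: 7 of 48 histone genes were gained without 786-O WT replicate 1, where 2.48% of all genes were, and 3 of 48 without WT replicate 2, where 3.38% were. In RPTEC, H2AC8 was the 1 gained gene, and 3 of 43 were gained without WT replicate 1, where 4.28% of all genes were. Without WT replicate 2, 2 of 44 were gained and 1 lost, where 2.52% and 3.08% of all genes were. Without SETD2KO-2 replicate 2, 3 of 44 were gained, and without SETD2KO-1 replicate 2, 2 of 44, where 2.5% and 1.84% were. With 4 against 2 libraries the smallest possible p is 0.0667. Against SETD2KO-1, the rescued line SETD2KO-1R lost H4C2 in 786-O, called in both SETD2KO-1 libraries and neither rescued one, where 3.58% of 11746 genes did so, and gained none, where 2.35% did. In RPTEC the rescued line gained H3C13, H4C1, H3C6 and H4C12 (3.28% of 11582 genes) and lost H3C2 and H4C3 (2.72%). These were counts of 2 against 2 libraries with a smallest possible p of 0.333, and leaving out a library moved several of them.

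A region within H2BC5 did separate by SETD2 status. The annotated body of H2BC5 reaches 13229 bp, and a peak 504 to 527 bp before its end was called in all 4 SETD2KO 786-O libraries and in no SETD2-expressing one, nor in RPTEC. Within chr6:26170720-26171255 the 4 peaks were 361 to 514 bp long, with list ranks at the 74.8th to 89.9th percentile. When the peaks of the 8 786-O libraries were merged into regions, 1 of 49 histone regions behaved so, where 0.475% of 79147 regions did. The covered share of H2BC5 given above counts these peaks too, so the results are not independent. The region was noticed after the values were seen and no test was made of it alone.

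Median peak length at histone genes was higher in every SETD2KO library than in any SETD2-expressing library of the same cell line, but not once peaks over several protein-coding genes were left out. The median length per 786-O library was 523, 388, 456 and 388 bp with SETD2 knocked out, 327, 364, 367 and 357 bp with SETD2 expressed, and the groups do not overlap. In RPTEC it was 364.5, 339, 464 and 341 bp against 328, 333.5, 280 and 331 bp, which also do not overlap. Peaks near the starts of other genes had medians of 361.5 to 450 bp and 379 to 452 bp in 786-O, and of 371 to 416 bp and 362 to 412 bp in RPTEC, so these overlap. For each gene the longest peak in each library was also averaged over libraries. In 786-O this mean was longer in SETD2KO at all 15 histone genes called in all 8 libraries, against 55.3% of 6394 genes. The median difference was 68 bp, against 15 bp over those genes. The 15 histone genes do not hold 15 separate peaks, since H2BC21 and H2AC20, H2AC15 and H2BC15, and H4C15 with H2AC19 and H3C15 share theirs. In RPTEC it was 5 of 8 genes, against 42.4% of 5362. With peaks over 1 protein-coding gene only, the difference fell from 85 to 32.1 bp in 786-O and from 59 to 3.25 bp in RPTEC, and the groups overlap. The medians over peaks at 1 histone gene were 343 to 379 bp against 306 to 351 bp in 786-O and 294.5 to 330.5 bp against 277 to 323 bp in RPTEC. With lists limited to their upper 50% by score, the RPTEC groups overlap too. Without SETD2KO-2 replicate 1, at 464 bp, the RPTEC difference was 30.0 bp. The measure was chosen after seeing the data and has no test.

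**Figure D5:**
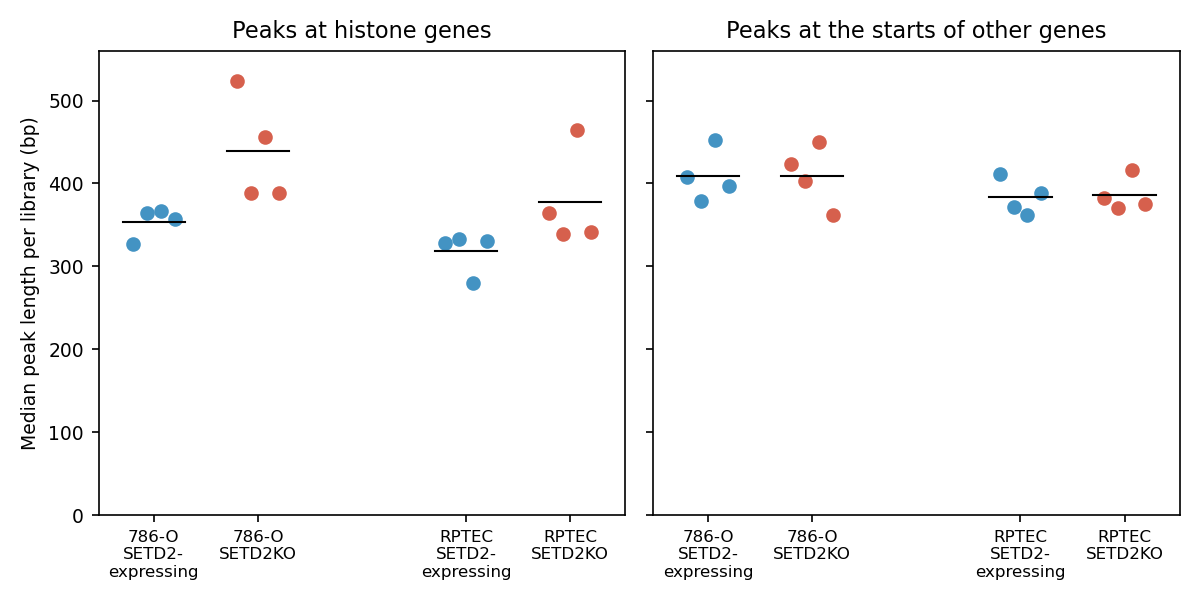
Median peak length (bp) in each of the 16 IP libraries, at histone genes (left) and at the starts of other protein-coding genes (right), by cell line and SETD2 status, with the bar at the mean of 4 libraries. The left groups do not overlap within a cell line and the right groups do.

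Other histone and histone-handling genes were read for comparison. Of 11 replication-independent histone genes, most of which are polyadenylated, H1-10, H2AJ, MACROH2A1 and H3-3B were called in all 16 libraries. MACROH2A2 was called in all 4 SETD2-expressing RPTEC libraries, no SETD2KO one and no 786-O library. By SETD2 status, 0.394% of the 12185 genes tested in RPTEC separated in that direction, and none passed adjustment. The 191 peaks of the 11 genes had 34.6% of summits within 500 bp of a start, and 31.8% of those lay upstream. Of 15 genes for histone transcription and 3′ end processing, 8 to 15 were called per library, with NPAT, CASP8AP2, SLBP and POU2F1 among the 6 called in all 16. Of 10 histone chaperone genes 7 to 10 were called.

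The labels could be checked in part. SETD2 itself had peaks in every library. In RPTEC there were 4 to 6 in the SETD2KO and 7 to 11 in the SETD2-expressing libraries, which do not overlap, and in 786-O 4 to 10 and 7 to 10, which do (mean 6 and 8.5). A CRISPR edit can leave the transcript, so these counts do not test the knockout. The share of all genes whose peak counts separate in this way is not given here. Of 7 markers of kidney epithelium, PAX8, PAX2, KRT8 and KRT18 were called in all 16 libraries, KRT19 in 8 RPTEC and 2 786-O libraries, EPCAM in 2 RPTEC libraries and CDH1 in none. Of 4 markers of VHL-deficient carcinoma in the gene table, 2 were called in all 16 libraries, 1 in some and 1 in none. Among proximal tubule genes, LRP2, SLC34A1, AQP1 and HNF4A had no peak in any library, RPTEC included, GGT1 had one in all 16, ANPEP in 8 RPTEC and 2 786-O libraries and CUBN in 1 786-O library. Markers of other cells (PTPRC, PECAM1, COL3A1 and VWF) had none either, and COL1A1 was called in 6 RPTEC and 1 786-O libraries. A missing peak does not show that a gene was silent.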

How the data were processed

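Per the labels and the study's methods, the authors aligned reads to hg38 with STAR, counted them with HTSeq, scaled by E. coli spike-in RNA and ran MACS2 on each IP library against its Input. They deposited 1 narrowPeak list for each of the 16 IP libraries. The 16 Input samples had no list to use here. Column 5 of the deposited lists is a whole-number score of unstated scale, used only for ranks within a list. The other deposited columns used are start, end and summit offset. Columns for enrichment and significance were 0 throughout and strand was absent. No read counts were used, so the depth of each library is unknown.

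Genes, strands and promoters came from RefSeq GRCh38.p14. A call was an overlap of at least 1 bp. Calls were compared by Fisher's exact test (two-sided) over all protein-coding genes called in at least 1 library compared, with Benjamini-Hochberg adjustment over all and a threshold of 0.05, and the covered share by an exact two-sided permutation test over libraries for all genes. Scripts were tested on simulated data. Results for 2 genes of the comparison lists are not reported here. The members and gene lists were chosen with earlier results of these data known. Named genes were the 3 most recurrent of each family, those past the threshold, those fully separated in a SETD2 comparison, and those differing by at least 3 libraries by SETD2 status. H1-1 and H4C2 were added for an unadjusted p under 0.05, and the H2BC5 region after its values were seen. Alternatives were the overlap, the score threshold, the number of peaks, peaks over several genes, the replicate block, the line as unit, clones alone and leaving out each library. NumPy, pandas and SciPy were used in Python.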

Additional observations from a re-analysis of the deposited data

Results flagged for a closer look

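In the 4 RPTEC SETD2-expressing libraries, the median length of peaks at histone genes was 280 bp in SETD2KO-1R replicate 1, and the nearest other library was at 328 bp. Its distance from the others made up more of the group's range than the 95% limit for 4 samples allows. About 1 in 20 such groups is marked by chance. That library also had the fewest peaks over several histone genes (3), and their part in the value was not tested. Without it the lowest value of the group was 328 bp, and the SETD2KO libraries still started at 339 bp.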

How the results depend on the processing

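Calls depended most on whether the summit had to lie inside the gene body. With that rule the mean number of histone genes per library fell from 36.1 to 9.75 in 786-O and from 29.5 to 7.5 in RPTEC, and with peaks over 1 protein-coding gene only to 20.4 and 16.4. Leaving out a library gave 35.1 to 37.6 and 28.4 to 30.7. Between the cell lines, 1 histone gene passed as reported. It was 0 with the summit inside the body, the upper 50% by score, the same number of peaks, summits within 250 bp of a start (chosen after seeing the data, with 0 of 5115 genes passing) and the line as unit, and 1 to 2 without each library, where leaving out RPTEC WT replicate 2 added H1-1. The adjusted p of H2BC9 without each library was 0.0124 to 0.0139. Over the alternatives that gave one it reached 1, with the line as unit, where 4 lines a side could hardly pass adjustment. With the replicate number as a block it was 0.0365 and the count stayed at 1, and the blocked count by SETD2 status was 0 in both cell lines. The numbers do not pair the libraries: correlations of replicate differences between lines ran from -0.107 to 0.123. Histone genes with a covered share past the threshold were 5 as reported, 2 with the summit inside the body, 1 in the upper 50%, 2 with the same number of peaks and 4 to 6 without each library.

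By SETD2 status no histone gene passed adjustment under any alternative run, but these runs could hardly have given another result. The smallest possible unadjusted p by Fisher's exact test was 0.0286 with 4 libraries a side and larger with fewer. The count fully separated, 0 as reported, was 3 of 40 in 786-O and 4 of 41 in RPTEC with the line as unit (4.85% and 5.62% of all genes), 1 in 786-O with merged peak regions (chosen after seeing the data), 1 of 44 and 2 of 41 in RPTEC with SETD2KO-1 and SETD2KO-2 alone (2.49% and 2.82%), and 0 to 1 in both cell lines without each library (786-O SETD2KO-1R replicate 2; RPTEC SETD2KO-1, WT and SETD2KO-1R replicate 2), where 0.934% to 1.42% of all genes were. Against WT, the 1 gene in 786-O became 0 with the summit inside the body, the upper 50% or the same number of peaks, 2 with SETD2KO-1 alone (5.56% of all genes) and 1 to 8 without each library, most without WT replicate 1 (5.49%). The 1 gene in RPTEC became 0 with the upper 50% or summits near a start, 4 with either clone alone (6.5% and 6.64%) and 1 to 3 without each library (3.51% to 7.12%), and with the summit inside the body or peaks over 1 gene it was 0 gained and 1 lost. For SETD2KO-1R against SETD2KO-1, the 1 gene in 786-O became 0 with the summit inside the body, 2 in the upper 50% (6.8%) and 4 to 9 without each library (11.5% to 16.5%), and the 6 in RPTEC became 3 with the summit inside the body (6.13%) and 7 to 12 without each library (12.1% to 15.9%). The upstream share of summits was 78.8% to 81.6% without each library. The difference in median peak length was 148 bp in the upper 50% and 32.1 bp with peaks over 1 gene in 786-O, 3.25 bp with the latter in RPTEC, and 56.9 to 102 bp and 30.0 to 71.7 bp without each library. The causes were not tested.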
